A study of Mus musculus with 18 samples.

Results

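The common effect of chronic hypoxia on the mouse lung was measured over 3 genotypes at once, with 9 hypoxia libraries set against 9 normoxia libraries. All 18 of the study's 18 libraries enter this comparison, in 6 groups of 3, and every gene with enough fragments was tested. The members were chosen by label alone: exposure was the tested factor and genotype was a block, so that differences between the genotypes that are present in both exposures do not count. Each library holds poly(A) RNA of whole frozen lung from male C57BL/6 mice labelled wild type, β-arrestin 1 -/- or β-arrestin 2 -/-. Mice were 8 to 12 weeks old at the start and 12 to 16 weeks by their age label, after 4 weeks at normal altitude (oxygen pressure of about 150 mmHg, written PAO2) or at the air pressure of 18000 feet (about 70 mmHg). The labels name no cell type for either deletion and leave unstated whether a library stands for 1 animal, so p-values here refer to variation among libraries, which may be technical. Where several libraries are listed together, WT, B1 and B2 stand for wild type, β-arrestin 1 -/- and labelled β-arrestin 2 -/-, N and H for normoxia and hypoxia, and the last digit for the replicate.

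Low oxygen stabilises hypoxia-inducible factors (HIFs), which switch on genes of glycolysis, vessel growth and oxygen delivery. In the lung, unlike in other organs, small arteries constrict when oxygen is low. Weeks of such exposure raise the pressure in the pulmonary circulation and remodel its vessels, with thicker muscle layers, more matrix and altered endothelium. β-Arrestins, the proteins that the other lines are named for, bind activated G protein-coupled receptors and end their signalling through G proteins.

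Each library held 16806806 to 25983090 estimated fragments (median 22836657). Lung identity held throughout: the surfactant protein gene Sftpa1 had 2546 to 4998 CPM, the alveolar type 1 gene Ager 2699 to 5952 and the endothelial cadherin gene Cdh5 871 to 1938 in the 18 libraries. CPM is a gene's share of the counted fragments, scaled by TMM to a common library size. Arrb1 stood at 83.7 to 118 CPM in the 6 β-arrestin 1 -/- libraries against 302 to 478 in wild type. The 6 libraries that carry the β-arrestin 2 -/- label had Arrb2 over the range of wild type (30.7 to 46.5 against 30.2 to 43.3 CPM), and they are called libraries labelled β-arrestin 2 -/- throughout. The library β-arrestin 1 -/- hypoxia replicate 2 stood apart. It had the lowest total, the lowest mean correlation with the other 17 libraries (Pearson r = 0.957 on log2 CPM, against 0.960 to 0.979) and the highest share of fragments from ribosomal protein genes (1.04% against 0.46% to 0.76%). Its position was measured from the midpoint between the β-arrestin 1 -/- normoxia mean and the mean of the other hypoxia libraries of that genotype. On the genes that the other 17 libraries called, its median distance from that midpoint was -0.01 for those higher and 0.09 for those lower in hypoxia. It thus did not lie on the hypoxia side. Cardiac muscle genes summed to 106 to 8337 CPM in normoxia and 359 to 3872 in hypoxia, and in wild type to 106 to 536 against 1311 to 2319.

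Hypoxia raised 1211 of 15388 tested genes (7.87%) and lowered 1057 (6.87%), by edgeR's quasi-likelihood test with Benjamini-Hochberg adjusted p below 0.05, which calls 14.7% of genes in all. Most changes were small. The median log2 change was 0.43 among genes that rose and -0.41 among genes that fell, and 0.00 over all genes tested. A change of at least 2-fold was seen for 148 of the genes that rose (0.962% of those tested) and 113 of those that fell (0.734%). All 9 hypoxia libraries lay above all 9 normoxia libraries for 168 genes (1.09%) and below them for 99 (0.643%). Within each genotype, the 3 hypoxia libraries lay above the 3 normoxia libraries in all 3 genotypes for 307 genes (2.0%) and below for 204 (1.33%). Without β-arrestin 1 -/- hypoxia replicate 2 the counts were 1770 and 1726, and 98.4% of the 2268 called genes were called again. Without all libraries labelled β-arrestin 2 -/- they were 697 and 551, with 41.5% called again, and without wild type 780.0 and 601.

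The effect ran the same way in the 3 genotypes for nearly all called genes, though the call itself draws on all 3. Of the genes called higher, 96.6% had a positive log2 change in each genotype, against 17.8% of all genes tested. Of the genes called lower, 96.9% had a negative change in each, against 17.4%. Genotype by genotype (wild type, then β-arrestin 1 -/-, then labelled β-arrestin 2 -/-), the median log2 changes were 0.39, 0.41 and 0.47 for those that rose and -0.34, -0.36 and -0.46 for those that fell. In the contrasts of each genotype from 1 fit of the 6 group means, 81 genes rose and 35 fell in all 3, and 691 of the 2268 genes were called in no single genotype.

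A genotype left out of the call gave values that the call had not used. Of 769 genes called higher in both arrestin lines together, 671 (87.3%) had a positive change in wild type, where 49.3% of all genes did, and 121 (15.7%) were called in wild type alone, against 2.17% of all genes. Of 583 called lower, 499 (85.6%) had a negative change in wild type, against 50.7%, and 57 (9.78%) were called there, against 1.01%. With β-arrestin 1 -/- left out, 807 of 913 (88.4%) and 621 of 820 genes (75.7%) kept their direction, against 51.7% and 48.3% of all genes. Only 2.52% and 1.71% were called in that genotype alone, against 0.162% and 0.115% of all genes. With the libraries labelled β-arrestin 2 -/- left out, 550 of 689 (79.8%) and 366 of 547 (66.9%) kept their direction, against 50.6% and 49.4%. There 41.5% and 28.3% were called in the libraries left out, against 16.8% and 12.3% of all genes. Median log2 changes were smaller in the genotype left out. In the same order of genotypes left out, they went from 0.52, 0.52 and 0.62 to 0.3, 0.31 and 0.36 for rises, and from -0.59, -0.46 and -0.47 to -0.27, -0.2 and -0.15 for falls. The direction found in any pair of genotypes was thus shared by most of these genes in the remaining one.

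**Figure D1:**
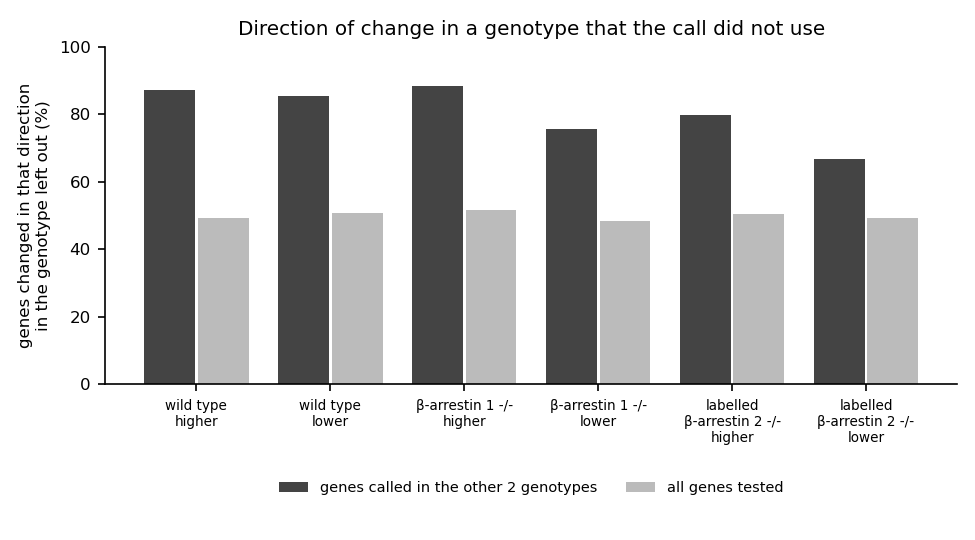
Share of genes that changed in the stated direction in the genotype left out (y axis, percent), for genes called higher or lower in the other 2 genotypes (dark bars) and for all genes tested (light bars). The dark bars stand between 66.9% and 88.4%, the light bars between 48.3% and 51.7%.

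Ntrk2 had the largest rise among the genes named by size of change. It encodes TrkB, the receptor tyrosine kinase for brain-derived neurotrophic factor, and lies on chromosome 13 from 58806596 to 59129967 (mm10). Its 9 normoxia libraries had 11.3 to 32.5 CPM with a median of 15.2, and its 9 hypoxia libraries 107 to 592 with a median of 283. The lowest hypoxia library was thus above 3 times the highest normoxia library, and the 3 highest normoxia libraries, at 27.7 to 32.5 CPM, were those of β-arrestin 1 -/-. The log2 change was 4.04 ± 0.33 (SE, adjusted p = 8.21e-07), and 4.59, 3.50 and 4.04 in the 3 genotypes, taken in the same order here and below.

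Slc26a10, of a family of anion transporters, had the smallest p of all genes. On chromosome 10 from 127172426 to 127180645, it went from 0.574 to 2.03 CPM in normoxia (median 1.37) to 11.8 to 28.5 in hypoxia (median 19.6). Its log2 change was 3.71 ± 0.19 (adjusted p = 5.46e-09). Fam181b, a gene of little-known function, followed with 5.53 to 8.85 CPM (median 7.10) against 17.9 to 34.8 (median 29.3), a log2 change of 1.93 ± 0.11 (adjusted p = 5.95e-09). In neither gene did a normoxia library reach the lowest hypoxia library, which the rule for naming them required. Without β-arrestin 1 -/- hypoxia replicate 2 the changes of Ntrk2 and Slc26a10 were 4.18 and 3.75.

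Cntn1, an axonal adhesion molecule, rose by 2.02 ± 0.27, Adam23, a neuronal ADAM protein without protease activity, by 1.97 ± 0.27, and Snph, a protein that anchors axonal mitochondria, by 1.96 ± 0.21 on the log2 scale (adjusted p of 1.44e-05 to 0.0001). Snph was low, at 0.682 to 1.80 CPM in normoxia and 2.84 to 6.5 in hypoxia. Cdk19, a kinase of the Mediator complex, was abundant, with 76.9 to 124 CPM in normoxia (median 91.1) and 161 to 873 in hypoxia (median 409). Mfsd2a, a lysolipid transporter of endothelium and alveolar type 2 cells, rose from a median of 4.68 to 14.3 CPM (1.67 ± 0.23, adjusted p = 0.000106). C2cd4b (1.84 ± 0.21), the cytokine gene Osm (2.01 ± 0.36) and the immediate early genes Fos and Egr1, described below, complete the 12 with the largest rises.

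Plvap, with the highest median in normoxia of the genes named by size of change, encodes the protein of the diaphragms that span endothelial fenestrae and caveolae, and lies on chromosome 8 from 71497753 to 71511769. Normoxia libraries had 680.0 to 1248 CPM with a median of 976, and hypoxia libraries 102 to 229 with a median of 157. The log2 change was -2.70 ± 0.15 (adjusted p = 5.95e-09), and -2.79, -2.38 and -2.91 in the 3 genotypes. Esm1, endocan, a proteoglycan secreted by sprouting endothelium, fell with it, from 36.1 to 95.8 CPM (median 48.5) to 8.15 to 18.3 (median 11.8; log2 change -2.13 ± 0.18, adjusted p = 1.1e-06). The hypoxia and normoxia libraries did not overlap in either gene, as the rule for naming them required. Without β-arrestin 1 -/- hypoxia replicate 2 the change of Plvap was -2.77.

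Olfm2, a secreted olfactomedin-domain protein, fell from 11.3 to 18.8 CPM (median 15.2) to 0.520 to 3.45 (median 2.69), a log2 change of -2.67 ± 0.22 (adjusted p = 8.64e-07). Esr2, estrogen receptor beta, fell from a median of 3.66 to 1.19 CPM (-1.72 ± 0.15) and Mpp3, a scaffold protein of cell junctions, from 5.96 to 1.43 (-1.87 ± 0.17). Syt15 (-1.61 ± 0.19) and Krtap17-1 (-1.56 ± 0.25), a keratin-associated protein gene, fell as well. Serpina3f (-1.90 ± 0.35) and Serpina3g (-1.39 ± 0.21), near-identical serine protease inhibitor genes given the same position on chromosome 12 in the deposited table, share fragments and are uncertain one by one. Ankrd63, Lyve1 and Ppp2r2c also fell, by amounts that differed between genotypes, as given below.

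Some small changes were among the most regular. Kcnk2, the stretch-gated potassium channel TREK-1, had 43.1 to 61.6 CPM in normoxia and 27.8 to 34.0 in hypoxia, a fall of only -0.78 ± 0.05 (adjusted p = 1.02e-07). Cx3cl1, fractalkine, which tethers leukocytes to endothelium, had 77.7 to 93.4 against 37.1 to 57.0 CPM (-0.95 ± 0.07, adjusted p = 2.82e-07). Atp1b2, a sodium pump subunit, rose by 0.86 ± 0.07, and by 0.84, 0.89 and 0.84 in the 3 genotypes. The transcription factor Msx1 (1.44 ± 0.10) and Shisa2 (1.5 ± 0.11), which holds back Wnt and FGF receptors, rose. Their 9 and 9 libraries did not overlap, which the naming rule required.

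**Figure D2:**
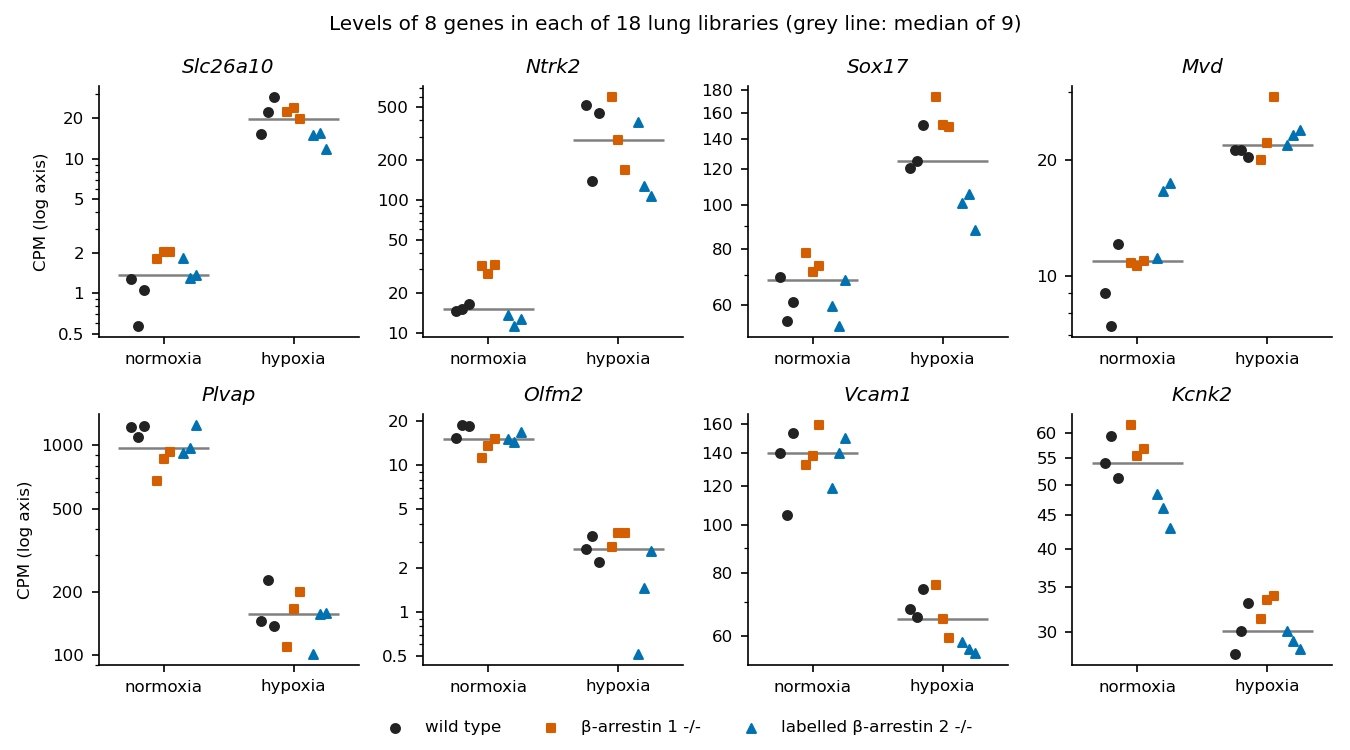
CPM on log axes of 8 genes in each of the 18 libraries, by exposure, with 1 point per library, colour and shape for genotype, and a grey line at the median of 9. For each gene the 9 hypoxia libraries lie wholly above (upper row) or wholly below (lower row) the 9 normoxia libraries.

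**Figure D3:**
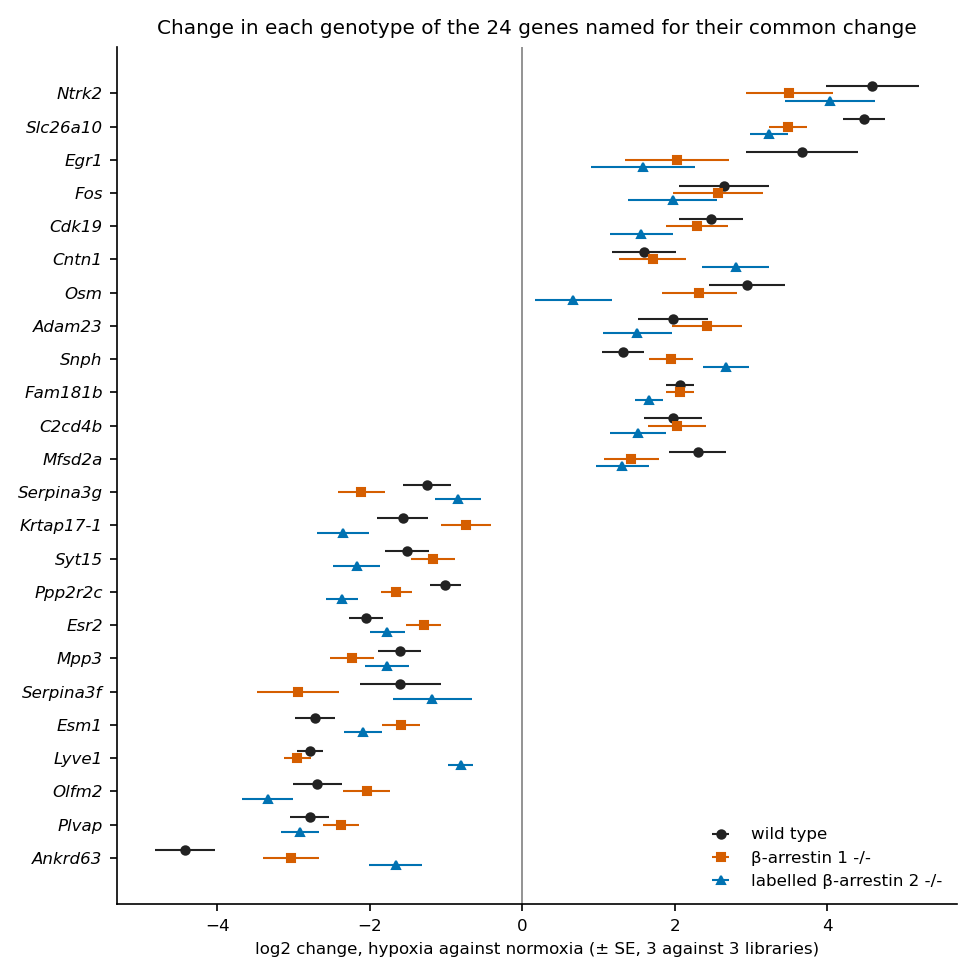
Log2 change of hypoxia against normoxia (x axis, ± SE, 3 libraries against 3) in each genotype for the 12 genes named for the largest rises and the 12 named for the largest falls. Only genes with no overlap of the hypoxia and normoxia libraries could be named, so the choice itself gives all 72 changes the sign of the common effect. The interaction with genotype was called for Lyve1, Ankrd63 and Ppp2r2c.

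Markers of endothelial subtypes split rather than moving together. In bulk lung, fewer cells of a type and less RNA per cell cannot be told apart, which holds for every marker below. Counts of list members called, here and below, stand beside 7.87% of all genes called higher and 6.87% called lower. Sox17, a transcription factor that specifies arterial endothelium, rose from 54.1 to 78.4 CPM (median 68.4) to 88.3 to 173 (median 125), a log2 change of 0.96 ± 0.08 (adjusted p = 7.52e-07) without overlap. Of 10 arterial genes 3 rose, against 7.87% of all genes, the other 2 being the gap junction gene Gja4 (0.94 ± 0.15) and the chemokine gene Cxcl12 (1.11 ± 0.18). The arterial ephrin gene Efnb2 fell (-0.50 ± 0.10), and the median over the 10 was 0.05. The medians in the 3 genotypes were 0.17, 0.32 and -0.11. The sum of the 10 rose without overlap in wild type (2219 to 2553 against 2904 to 4147 CPM) and β-arrestin 1 -/- (2362 to 2661 against 3190 to 4713). In the libraries labelled β-arrestin 2 -/- it was 2601 to 2952 CPM in normoxia and 2305 to 2634 in hypoxia. Without WTH0, B1H1 or B2N2, 2 fell.

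Of 9 venous genes 4 fell, against 6.87% of all genes, and 2 rose, with a median of -0.85. Vcam1, the vascular adhesion receptor for lymphocytes and monocytes, fell from 105 to 159 CPM (median 140.0) to 55.2 to 75.9 (median 64.8), by -1.10 ± 0.08 (adjusted p = 2.03e-07). Prss23, a secreted protease of venous endothelium, fell from a median of 200 to 102 CPM (-1.04 ± 0.09, adjusted p = 1.18e-06), and its 9 and 9 libraries did not overlap. Selp, P-selectin, fell by -0.85 ± 0.21 (adjusted p = 0.0109). Without the libraries labelled β-arrestin 2 -/- 0 rose and 5 fell, and without wild type 2 fell.

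Of 10 general capillary genes only Plvap fell and Sema3c, a guidance protein of capillaries, rose (452 to 872 against 934 to 1836 CPM, 1.09 ± 0.13, adjusted p = 3.29e-05). Of 10 genes of aerocytes, the large capillary cells of gas exchange, Tbx2 rose (0.48 ± 0.08). Ednrb fell by -0.49 ± 0.16 (adjusted p = 0.046), a call lost without any 1 of the 18 libraries but B2N0, B2H0 and B2H2. Without B2N0 3 of the 10 fell.

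Lymphatic markers moved in opposite directions. Prox1, the transcription factor that makes endothelium lymphatic, rose from a median of 1.21 to 3.86 CPM (1.56 ± 0.33), Mmrn1 from 22.1 to 75.6 (1.42 ± 0.19) and Reln from 9.95 to 36.3 (1.66 ± 0.18), while the lymphatic hyaluronan receptor gene Lyve1 fell. In all, 4 of 8 rose and 1 fell, with a median of 0.53. Lyve1 is also carried by macrophages along vessels, and 14 genes of interstitial and perivascular macrophages had a median of -0.14. Mmrn1 and Reln rose most in the libraries labelled β-arrestin 2 -/- (2.26 and 2.43) and least in β-arrestin 1 -/- (0.86 and 1.02; interaction adjusted p = 0.0225 and 0.0259).

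Of 28 targets of HIFs 4 rose and 5 fell after 4 weeks, against 7.87% and 6.87% of all genes, with a median of 0.13. Pgf, placental growth factor, rose from 6.80 to 9.23 CPM (median 7.08) to 10 to 16.3 (median 12.3), by 0.84 ± 0.09 (adjusted p = 1.91e-05) and alike in each genotype (0.82, 0.85 and 0.84). The lipoprotein receptor gene Vldlr (0.48 ± 0.09), the Myc antagonist gene Mxi1 (0.47 ± 0.09) and the glucose transporter gene Slc2a1 (0.33 ± 0.09, adjusted p = 0.0236) also rose. The Slc2a1 call was lost without replicate 2 of the normoxia or replicate 1 of the hypoxia libraries labelled β-arrestin 2 -/-.

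The targets that fell included Stc1, the secreted hormone stanniocalcin 1, from 9.22 to 17.6 CPM (median 11.9) to 3.35 to 6.77 (median 5.53), by -1.27 ± 0.14 (adjusted p = 2.28e-05). Hilpda, an inhibitor of triglyceride breakdown, fell by -1.21 ± 0.16 and Angptl4, which inhibits lipoprotein lipase, by -1.23 ± 0.28. Hilpda was at 39.4 to 70.7 CPM in 8 hypoxia libraries and at 140.0 in β-arrestin 1 -/- hypoxia replicate 2. The carbonic anhydrase genes Car9 (-0.77 ± 0.21) and Car12 (-1.18 ± 0.36) fell at levels of at most 2.74 CPM, and the call of Car12 was lost without any 1 of 10 libraries (WTN2, WTH1, B1N0, B1N1, B1H0, B2N0, B2N1, B2N2, B2H1 and B2H2). Without the β-arrestin 1 -/- libraries 2 targets fell, and without the libraries labelled β-arrestin 2 -/- 2 rose.

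Among HIF subunits and oxygen sensors 1 of 10 genes changed, Egln1, the main prolyl hydroxylase that marks HIF for destruction, by 0.25 ± 0.05 (adjusted p = 0.00327), and 2 rose without β-arrestin 1 -/- hypoxia replicate 2. Without the libraries labelled β-arrestin 2 -/- 0 rose and 1 fell, and the interaction was called for 2 of the 10. The summed level of the list went from 4878 to 5922 CPM to 3122 to 4461 in wild type and from 3811 to 3958 to 5229 to 5824 in the libraries labelled β-arrestin 2 -/-, without overlap in either. Of 19 glycolysis genes 5 rose and 1 fell, with a median of 0.23. Aldoc rose by 0.76 ± 0.11 and Hk1 by 0.38 ± 0.06, while the lactate dehydrogenase gene Ldhb fell by -0.45 ± 0.12. Without the wild type libraries 3 rose, and without B2N2 2 fell.

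The promoters shown are those of Ntrk2, the named gene with the largest rise, and of Pgf and Slc2a1, HIF targets that rose. Those of Vldlr and Mxi1, which also rose, and of targets that fell are not shown. The 250 bases before the RefSeq start (GRCm38.p6, 5′ to 3′ on the gene's strand) were searched on both strands for ACGTG or GCGTG, the core letters of the hypoxia response element. Capitals mark these matches on either strand. CACGTG, an E-box, contains ACGTG and was in none of the 3 windows and in 8.09% of all windows.
Ntrk2 (chr13:58806319-58806568, plus strand): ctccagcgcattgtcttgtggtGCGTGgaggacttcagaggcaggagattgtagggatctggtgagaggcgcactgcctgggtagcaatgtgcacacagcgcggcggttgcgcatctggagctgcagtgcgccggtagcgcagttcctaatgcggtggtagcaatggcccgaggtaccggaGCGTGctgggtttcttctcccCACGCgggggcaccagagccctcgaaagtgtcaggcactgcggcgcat
Pgf (chr12:85177314-85177563, minus strand): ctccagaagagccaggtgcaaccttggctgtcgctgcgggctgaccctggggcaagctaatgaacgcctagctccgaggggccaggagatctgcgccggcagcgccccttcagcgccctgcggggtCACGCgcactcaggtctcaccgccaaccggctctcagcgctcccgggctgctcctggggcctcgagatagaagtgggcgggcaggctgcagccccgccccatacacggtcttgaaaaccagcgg
Slc2a1 (chr4:119108495-119108744, plus strand): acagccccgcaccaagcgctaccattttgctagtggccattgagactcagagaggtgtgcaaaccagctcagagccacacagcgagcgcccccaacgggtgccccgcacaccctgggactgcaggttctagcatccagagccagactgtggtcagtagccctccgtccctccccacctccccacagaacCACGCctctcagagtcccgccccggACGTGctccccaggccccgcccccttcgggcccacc
GCGTG or its complement occurred 3 times before Ntrk2, 1 time before Pgf and 1 time before Slc2a1, which also held ACGTG. Of 11255 tested genes with a window, 43.4% held GCGTG and 21.1% ACGTG. The shares were 41.9% and 18.6% among genes that rose, 37.6% and 18.9% among genes that fell, and 65.0% and 45.0% in the 20 listed HIF targets with a window. A match is a description of the letters, not a site of binding.

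Genes of vessel tone changed singly. Of 6 endothelin genes 1 rose and 3 fell. Edn1, the constrictor endothelin 1, was at 25.2 to 102 CPM in normoxia (median 52.2) and 57.3 to 148 in hypoxia (median 119), a log2 change of 0.83 ± 0.25 (adjusted p = 0.031). It changed by -0.04, 0.67 and 1.91 in the 3 genotypes (interaction adjusted p = 0.0231). The call was lost without any 1 of 9 libraries (WTH0, B1N0, B1N1, B1H0, B2N0, B2N1, B2N2, B2H1 and B2H2). Edn3 (-0.44 ± 0.08) and the processing enzyme gene Ece1 (-0.36 ± 0.09) fell.

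Ptgir, the receptor for the vasodilator prostacyclin, rose from 4.30 to 6.63 CPM (median 5.67) to 6.84 to 13.7 (median 10.7), by 0.91 ± 0.11 (adjusted p = 4.18e-05) and without overlap. Of 13 prostanoid genes 2 (15.4%) rose, against 7.87% of all genes, and 2 fell without wild type hypoxia replicate 2. With all libraries 1 (7.69%), the prostaglandin E2 receptor gene Ptger2, fell (-0.45 ± 0.09), near the 6.87% of all genes. Ramp3, which turns the calcitonin receptor-like receptor into a receptor for the dilator adrenomedullin, rose from 7.24 to 13.6 CPM to 16.9 to 29.0 (1.11 ± 0.14, adjusted p = 5.12e-05). It was the only one of 6 adrenomedullin and RAMP genes that was called.

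Of 14 genes of nitric oxide and cGMP signalling 3 (21.4%) rose and 3 (21.4%) fell, against 7.87% and 6.87% of all genes. The endothelial synthase gene Nos3 rose by 0.66 ± 0.12 (adjusted p = 0.00157), while Arg2, an arginase that draws on the same substrate, fell by -0.78 ± 0.19 and Npr3, the clearance receptor for natriuretic peptides, by -1.44 ± 0.35. Without β-arrestin 1 -/- hypoxia replicate 2, the library with the least Nos3 in hypoxia, 5 of the 14 rose. Without any 1 of the 3 genotypes 1 fell, and without wild type 1 rose. Npr3 changed by -1.98, -2.25 and -0.01 in the 3 genotypes (interaction adjusted p = 0.0697). In the renin-angiotensin system Ace, which makes angiotensin II, rose by 0.58 ± 0.15 (adjusted p = 0.016). There 3 of 6 genes rose and 1 fell, with medians of 0.09, 0.00 and 0.42 in the 3 genotypes. The count of rises was 0 without the libraries labelled β-arrestin 2 -/-, and 1 rise was left without any 1 of 6 libraries, namely WTN1, WTH0, B2N1, B2N2, B2H1 and B2H2.

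Of 20 VEGF, angiopoietin and PDGF genes, growth factors of vessels and their receptors, 8 (40.0%) rose, against 7.87% of all genes, and 0 fell, with a median of 0.23. Vegfc, the ligand of the lymphatic VEGF receptor, had 18.8 to 36.7 CPM in normoxia (median 22.4) and 23.1 to 77.5 in hypoxia (median 54.1), a log2 change of 0.96 ± 0.12 (adjusted p = 5.68e-05), with overlap. Figf, which encodes the related VEGF-D, rose by 0.54 ± 0.11. Without the libraries labelled β-arrestin 2 -/- 3 rose, and without wild type 5.

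Of 13 Notch pathway genes 4 rose and 0 fell, against 7.87% and 6.87% of all genes, and 4 rose without any 1 library. The median over the 13 was 0.03. By genotype it was -0.12 (wild type), -0.04 (β-arrestin 1 -/-) and 0.22 (labelled β-arrestin 2 -/-). The sum of the 13 in wild type was 1708 to 1875 CPM in normoxia and 1625 to 1867 in hypoxia. In β-arrestin 1 -/- it was 1557 to 1700 against 1481 to 1804. The sum rose without overlap only in the libraries labelled β-arrestin 2 -/- (1331 to 1542 against 1835 to 1964). Hey2, a repressor induced by Notch in arteries, rose from 4.51 to 7.22 CPM (median 5.62) to 9.40 to 20.5 (median 12.9), by 1.22 ± 0.12 (adjusted p = 7.18e-06) without overlap. The ligand gene Jag2 rose by 0.99 ± 0.17. Notch3, the receptor of mural cells, rose by 0.64 ± 0.12, with β-arrestin 1 -/- hypoxia replicate 2 at 147 CPM and the other 8 hypoxia libraries at 281 to 324.

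Of 44 BMP and TGF-beta genes 9 (20.5%) rose and 5 (11.4%) fell, against 7.87% and 6.87% of all genes, with a median of 0.06. Tgfb1 itself rose from 74.9 to 97.1 CPM (median 83.2) to 107 to 146 (median 120.0), by 0.49 ± 0.05 (adjusted p = 1.91e-05), and by 0.51, 0.48 and 0.47 in the 3 genotypes. Bmp3 rose by 0.55 ± 0.06 and Id1, a direct BMP target, by 0.64 ± 0.11, both without overlap. Gdf2, the endothelial ligand BMP9, fell by -1.37 ± 0.24 (adjusted p = 0.00109) at levels of 0.303 to 3.19 CPM. The 5 falls were 3 without β-arrestin 1 -/- normoxia replicate 0 or without hypoxia replicate 0 or 2 of the libraries labelled β-arrestin 2 -/-.

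Pericytes, the contractile cells that wrap capillaries, gave one of the highest shares. Of 16 pericyte genes 11 (68.8%) rose and 0 fell, with a median of 0.36, and their summed level was 1714 to 2250 CPM in normoxia and 2300 to 2614 in hypoxia. The 2 ranges did not overlap. Lamc3, a laminin chain, rose by 1.38 ± 0.19 (14.8 to 24.7 against 29.5 to 82.5 CPM) and Higd1b by 0.89 ± 0.16 (15.6 to 23.3 against 25.4 to 64.3). Rgs5, a G protein regulator, rose by 1.24 ± 0.28 although β-arrestin 1 -/- hypoxia replicate 2, at 1.06 CPM, was below every normoxia library. Without that library 13 rose, without the libraries labelled β-arrestin 2 -/- 6, and without wild type 3.

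Of 16 smooth muscle contractile genes only Lmod1, a leiomodin of actin filaments, rose (0.44 ± 0.09) and only Actg2, enteric smooth muscle actin, fell (-0.81 ± 0.24, adjusted p = 0.0282), with a median of -0.05. The call of Actg2 was lost without β-arrestin 1 -/- normoxia replicate 0 or any 1 hypoxia library labelled β-arrestin 2 -/-. Without normoxia replicate 0 of those libraries, the normoxia library with the most of both, 3 genes rose, and without wild type hypoxia replicate 2 2 fell.

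Matrix genes changed in both directions. Of 28 collagen and matrix genes 6 rose and 5 fell, with a median of -0.15. By genotype the median was 0.14 (wild type), -0.06 (β-arrestin 1 -/-) and -0.54 (labelled β-arrestin 2 -/-). The interaction was called for 5 of these 28, against 3.11% of all genes. Fn1, fibronectin, rose from a median of 363 to 638 CPM (0.82 ± 0.14) and Cyr61, a matricellular protein induced by stretch, from 126 to 406 (1.61 ± 0.25). Col5a1, a fibrillar collagen chain, fell by -0.73 ± 0.13 and Thbs1, thrombospondin 1, by -1.18 ± 0.27. Of 17 genes of elastic fibres and lysyl oxidases 4 rose and 2 fell, led by Mfap4, an elastic fibre protein, which went from 431 to 809 CPM (median 623) to 1008 to 1454 (median 1357), by 1.12 ± 0.12 (adjusted p = 1.55e-05) without overlap. The medians of these 17 genes in the 3 genotypes were 0.15, 0.1 and -0.43, and the interaction was called for 3. Their sum rose without overlap in wild type (2376 to 3118 against 3406 to 4308 CPM) and β-arrestin 1 -/- (2498 to 3037 against 3645 to 3929). In the libraries labelled β-arrestin 2 -/- it was 2903 to 3412 CPM in normoxia and 2426 to 3059 in hypoxia. The crosslinking enzymes Loxl3 rose (0.37 ± 0.07) and Loxl4 fell (-0.69 ± 0.13), and 1 gene of the list fell without WTN1 or B2H0. Of the collagen and matrix genes 1 fell without the libraries labelled β-arrestin 2 -/-.

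Of 25 potassium channel genes 7 (28.0%) rose and 4 (16.0%) fell, against 7.87% and 6.87% of all genes. Kcnk3, the acid-sensitive channel TASK-1 of pulmonary artery muscle, rose by 0.50 ± 0.08 (adjusted p = 0.00032), from a median of 69.0 to 98.5 CPM. Kcna5, the oxygen-sensitive channel Kv1.5, rose by 0.90 ± 0.20 and Kcnn3, a calcium-activated channel of endothelium, by 1.11 ± 0.17, both at under 8 CPM. Kcnk2 and Kcnk5 (-0.56 ± 0.10), of the same channel family as Kcnk3, fell. Without the libraries labelled β-arrestin 2 -/- 3 channels rose, and without wild type 4.

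Of 20 arrestin, receptor kinase and RGS genes 7 rose and 2 fell. RGS proteins speed the shutdown of G proteins. Rgs2, which restrains constrictor signals in vessels, rose from 55.5 to 105 CPM (median 76.8) to 91.6 to 161 (median 127), by 0.71 ± 0.12 (adjusted p = 0.000602), while Rgs9 fell from a median of 23.2 to 13.2 (-0.86 ± 0.12, adjusted p = 9.71e-05). Arrb1 (-0.09 ± 0.10, adjusted p = 0.592) and Arrb2 (0.20 ± 0.14, adjusted p = 0.349) did not pass the test. The 7 rises of the list were 4 without the libraries labelled β-arrestin 2 -/- and 3 without wild type.

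Of 32 genes of sterol and fatty acid synthesis 16 (50%) rose, 0 fell and 16 were not called, with a median of 0.32. The medians in the 3 genotypes were 0.44, 0.47 and 0.07, and the interaction was called for 4 of the 32, against 3.11% of all genes. Mvd, the decarboxylase of the mevalonate pathway, had 7.41 to 17.4 CPM in normoxia (median 10.9) and 19.9 to 29.0 in hypoxia (median 21.8), a log2 change of 0.96 ± 0.12 (adjusted p = 4.15e-05). Fdps, farnesyl diphosphate synthase, rose by 0.94 ± 0.15 and Lss, lanosterol synthase, by 0.72 ± 0.11. The 9 and 9 libraries of these 3 genes did not overlap. Scd1, the desaturase of new fatty acids, rose by 0.86 ± 0.21 and Fasn, fatty acid synthase, by 0.44 ± 0.12. The count was 20 without β-arrestin 1 -/- hypoxia replicate 2, 10 without β-arrestin 1 -/- and 6 without wild type.

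Members of this list shared a letter pattern in their promoters that the choice of the list had not used. CCAAT, known as the letters that the factor NF-Y binds, occurred in the 250 bases before the start in 16 of the 21 members with a window (76.2%) against 35.7% of all windows, and in 8 of the 9 members that rose and had a window. Among all genes that rose the share was 34.3%. The match nearest the start is printed for these 8, in capitals, as CCAAT or its complement ATTGG, with up to 12 bases on each side, on the gene's strand.
Mvk (chr5:114444243-114444268): tccagctctctgATTGGcctcaggaa
Pmvk (chr3:89454393-89454421): aactcaggttggCCAATtcacagcatcta
Mvd (chr8:122443433-122443461): ccggccagcgggCCAATcatatggcagcg
Lss (chr10:76531531-76531559): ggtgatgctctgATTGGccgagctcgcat
Nsdhl (chrX:72918489-72918517): aagactagcctcATTGGgcaaaatcatgc
Srebf1 (chr11:60222731-60222759): ctgcgactgtctCCAATgcaagacaacct
Insig1 (chr5:28071184-28071212): cgccctcctcccATTGGctccggcggcct
Fasn (chr11:120824590-120824618): cctcggtgtccaATTGGtttcgatgtgga
The matches began 14 to 216 bases before the RefSeq start, which for Pmvk and Srebf1 lies upstream of the start in the deposited table. These genes changed by 0.33 ± 0.10 (Mvk), 0.63 ± 0.17 (Pmvk), 0.41 ± 0.08 (Nsdhl), 0.32 ± 0.07 (Srebf1) and 0.30 ± 0.08 (Insig1) besides the values above, and the call of Mvk was lost without any 1 of 9 libraries (WTN0, WTN1, WTN2, WTH1, B1N0, B1N1, B1N2, B1H1 and B2H1). TCACCCC, the core of the sterol regulatory element, was found in 2 of the 21 windows (9.52%) against 4.56% of all windows. It was in 0 of the 9 windows of members that rose.

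Of 20 genes of fatty acid oxidation and fasting 9 (45.0%) fell and 0 rose, with a median of -0.16, and 9 fell without any 1 library, while 11 were not called. Their medians in the 3 genotypes were -0.27, -0.32 and -0.06, and in the libraries labelled β-arrestin 2 -/- their sum was 3138 to 3449 CPM in normoxia and 3103 to 3370.0 in hypoxia. Pdk4, the kinase that diverts pyruvate from oxidation, fell from 44.3 to 150.0 CPM (median 66.8) to 10.3 to 49.8 (median 29.2), by -1.52 ± 0.32 (adjusted p = 0.00358). The fatty acid transporter gene Cd36 fell by -0.54 ± 0.11 and the mitochondrial thioesterase gene Acot2 by -0.56 ± 0.09, from 18.9 to 30.8 CPM to 12.1 to 17.5 without overlap. Without β-arrestin 1 -/- 4 fell, and without wild type 4.

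Of 28 immediate early genes, switched on within minutes by many stimuli, 10 rose and 1 fell, with a median of 0.45. Fos had 16.8 to 59.6 CPM in normoxia (median 40.0) and 69.3 to 389 in hypoxia (median 196), a log2 change of 2.39 ± 0.32 (adjusted p = 9.21e-05). Egr1 had 23.9 to 80.9 CPM against 87.4 to 1023 (2.41 ± 0.45, adjusted p = 0.00179), with the highest value in wild type hypoxia replicate 2. Junb rose by 1.32 ± 0.24 and Nr4a1 by 2.28 ± 0.40, whereas its relative Nr4a3 fell by -1.80 ± 0.50. Without wild type hypoxia replicate 2 3 fell.

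Of 19 genes that respond to glucocorticoids 3 rose and 3 fell. Sgk1, a kinase that retains sodium channels at the membrane, rose from 165 to 229 CPM (median 190.0) to 250 to 589 (median 348), by 1.00 ± 0.10 (adjusted p = 7.2e-06), and the phosphatase gene Dusp1 rose by 1.06 ± 0.14. Cdkn1a, the cell cycle inhibitor p21, fell from 319 to 480.0 CPM to 100 to 293 without overlap (-1.10 ± 0.19). Of 18 clock genes 6 rose and 0 fell, led by the repressor gene Cry1 (1.30 ± 0.17, from a median of 21.4 to 62.4 CPM). Per2 and Per3 changed by 2.54 and 2.13 in the libraries labelled β-arrestin 2 -/- and by 0.16 to 0.88 in the other genotypes, a difference that did not pass the test (interaction adjusted p = 0.0808 and 0.08). The call of Per2 was lost without any 1 of 9 libraries (WTN0, WTN2, WTH2, B1H0, B2N0, B2N1, B2N2, B2H1 and B2H2), that of Per3 without all of these but B1H0, or without B1N0, B1N2, B1H1 or B2H0. The count of 6 was 2 without any 1 normoxia library labelled β-arrestin 2 -/-, and the time of day at collection is not given in the sources used here.

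Neutrophil genes had the largest share of rises. Of 16 listed genes Elane, Mpo and Ly6g were not tested. Of the 13 tested 10 (76.9%) rose and 0 fell, with a median of 1.49. Their summed level was 154 to 400.0 CPM in normoxia and 585 to 1013 in hypoxia. The sums did not overlap, but the mean log2 CPM of the same genes, less that of all genes, did: it was 0.05 in wild type normoxia replicate 2 and 0.03 in wild type hypoxia replicate 1. S100a8, a subunit of the alarmin calprotectin, had 2.49 to 21.6 CPM (median 5.72) against 16.4 to 121 (median 40.0), a log2 change of 2.43 ± 0.45 (adjusted p = 0.00185). Retnlg rose by 2.20 ± 0.41, and the granule protein gene Ngp was at 0 to 0.184 CPM in normoxia and 0.254 to 1.65 in hypoxia. Ngp passed the filter on low counts only through hypoxia libraries, so its rise is no separate support. Chi3l3, the chitinase-like protein Ym1, also made by alveolar macrophages, rose from 62.0 to 183 CPM to 198 to 660.0 (1.67 ± 0.21, adjusted p = 5.12e-05), a large part of the sum. Without β-arrestin 1 -/- 5 rose.

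Of 16 alveolar macrophage genes 8 rose and 0 fell, with a median of 0.59, and their sum was 750.0 to 1040.0 CPM in normoxia and 897 to 1857 in hypoxia. Abcg1, which exports cholesterol, rose from a median of 79.1 to 134 CPM (0.77 ± 0.11, adjusted p = 0.000198) and the proton pump gene Atp6v0d2 by 0.94 ± 0.18. Of 29 T and NK cell genes 12 rose and 1 fell, with a median of 0.38 and sums of 88.0 to 177 against 159 to 248 CPM. Their median was 0.87 in wild type, 0.31 in β-arrestin 1 -/- and 0.06 in the libraries labelled β-arrestin 2 -/-. The T cell factor gene Tcf7 rose by 0.79 ± 0.12 without overlap, Cd8a by 0.97 ± 0.21 and Cd8b1 by 1.25 ± 0.27. Without wild type 2 rose and without β-arrestin 1 -/- 7. The 1 fall was lost without any 1 of 8 libraries (WTH0, B1N0, B1H0, B2N1, B2N2, B2H0, B2H1 and B2H2), and 5 alveolar macrophage genes rose without β-arrestin 1 -/-.

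Of 18 genes of dendritic cells and MHC class II 3 rose and 5 fell, with Cd209a, a lectin of monocyte-derived dendritic cells, at -0.70 ± 0.13, the chemokine gene Ccl22 at -1.03 ± 0.27 and Ciita, the master regulator of MHC class II, at 0.97 ± 0.25. The 3 rises were 1 without WTN0, WTN1, WTH1, B1N0 or B1N1, and the 5 falls 1 without the libraries labelled β-arrestin 2 -/-. Of 24 interferon-stimulated genes 2 (8.33%) rose, near the share of all genes (7.87%), and 5 (20.8%) fell, against 6.87%. Mx2 (-0.76 ± 0.19) and Oasl2 (-0.61 ± 0.13) were among those that fell, and 0 rose or fell without the libraries labelled β-arrestin 2 -/-. The 2 rises were 1 without WTN1, WTN2, WTH2, B1H1, B2N0, B2N2 or B2H0. Of 16 B and plasma cell genes 2 (12.5%) rose, against 7.87% of all genes. That count was 0 without WTN0 or B1H1, 4 without B2H1, 5 without B2N1, and 2 without WTH0, B1H0, B2N2 or B2H2, and it was 1 without any other library. Ptx3, a soluble pattern recognition molecule, rose from a median of 1.07 to 4.31 CPM (2.24 ± 0.25, adjusted p = 1.74e-05).

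Of 11 genes of the mesothelium, the sheet that covers the lung, 5 fell, 0 rose and 6 were not called, with a median of -0.60, and they summed to 1394 to 2329 CPM in normoxia and 1026 to 1724 in hypoxia. Wt1, a transcription factor, fell by -1.11 ± 0.25, Upk3b by -1.01 ± 0.24 and Gpm6a by -0.75 ± 0.14. The changes in the libraries labelled β-arrestin 2 -/- were -2.09, -1.75 and -1.06, with interaction adjusted p of 0.0907, 0.201 and 0.309, and 0 genes of the list fell without those libraries.

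No member was called of 13 alveolar type 1, 14 motile cilia, 14 heat shock, 27 cell cycle, 22 cardiac muscle, 8 skeletal muscle and 36 mitochondrial complex I genes, by edgeR's quasi-likelihood test. In that order 2, 3, 1, 1, 0, 1 and 0 of these genes had an unadjusted p below 0.05, and DESeq2 called 1 alveolar type 1 and 1 heat shock gene higher and none of the others. The median of the cardiac genes was 0.37, and Myh6, the alpha cardiac myosin heavy chain, ran from 0.765 to 1600.0 CPM in normoxia and 69.9 to 1313 in hypoxia. Of 19 club and secretory genes 1 (5.26%) rose, under the share of all genes (7.87%), a count of 2 without B1N0 and 5 without B2N0. Their medians in the 3 genotypes were 2.69, 0.07 and -0.41. Of 14 alveolar type 2 genes 1 (7.14%) rose, near the share of all genes (7.87%), and the summed level was 12333 to 20074 CPM in normoxia and 12158 to 21363 in hypoxia. That rise was called without WTH0, B1H0, B1H1, B2N2, B2H0 or B2H2 and lost without any other library. A score of the cardiac, airway secretory and adipocyte lists, entered as a covariate, left 83.4% of the 2268 genes called, and called 1236 genes higher and 1085 lower in all. In wild type the score was -2.58 to -1.12 in normoxia and 0.53 to 1.02 in hypoxia. These ranges do not overlap, so in that genotype the score and the exposure cannot be told apart.

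**Figure D4:**
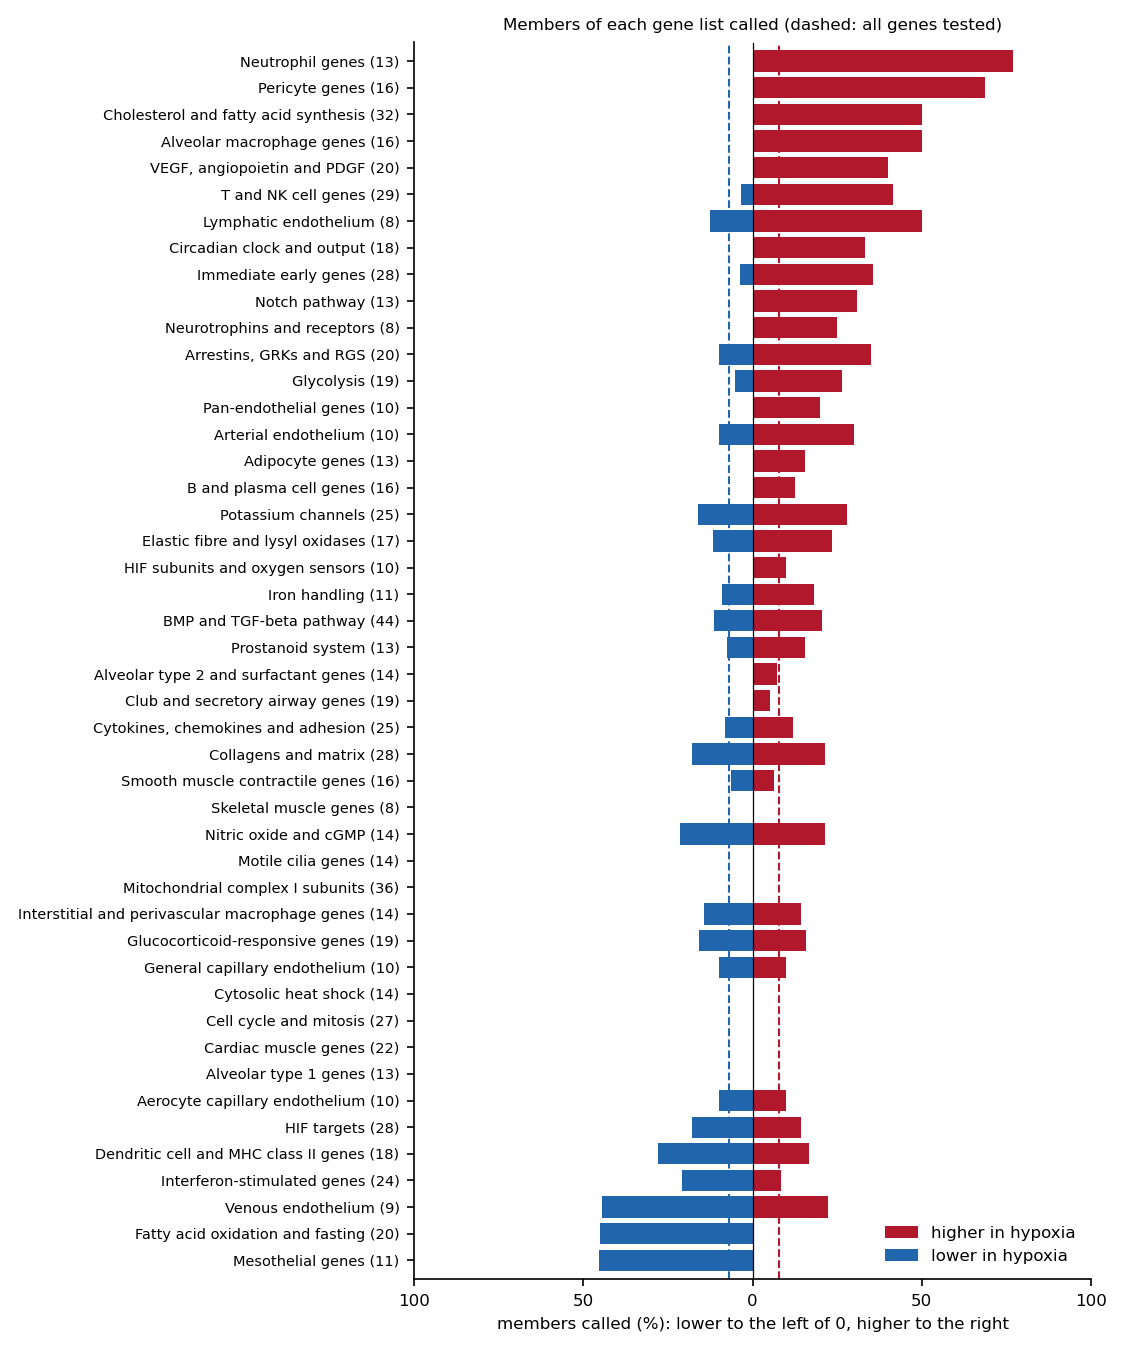
Share of the tested members of each gene list with at least 8 members (number in brackets) called higher (right of 0) or lower (left of 0) in hypoxia, with dashed lines at the shares of all 15388 genes, 7.87% and 6.87%. Neutrophil (76.9%) and pericyte genes (68.8%) had the highest shares of rises, and mesothelial (45.5%) and fatty acid oxidation genes (45.0%) the highest of falls.

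**Figure D5:**
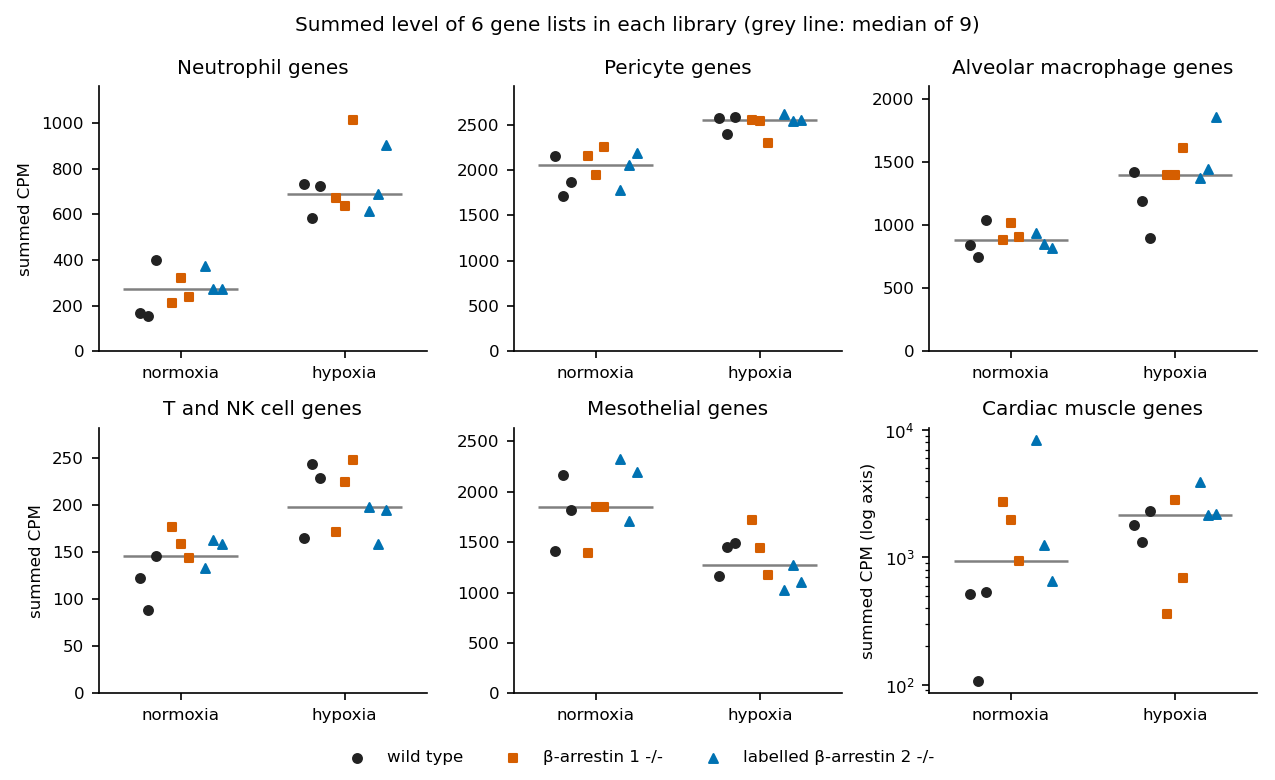
Summed CPM of the tested members of 6 gene lists in each library (y axis from 0, cardiac list on a log axis), by exposure and genotype, with a grey line at the median of 9. The neutrophil and pericyte sums of hypoxia and normoxia libraries do not overlap, those of the other 4 lists do.

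Where the effect differed between genotypes was tested by the interaction, with 2 degrees of freedom. It was called for 479 genes (3.11%), of which 398 were not called for the common effect. Among the 2268 called genes 81 (3.57%) had it, a share near that of all genes. Lyve1 fell in each genotype, but less in the libraries labelled β-arrestin 2 -/-. Wild type libraries went from 816, 1033 and 913 CPM in normoxia to 142, 153 and 107 in hypoxia, β-arrestin 1 -/- from 502, 633 and 644 to 80.6, 78.6 and 70.8, and those labelled β-arrestin 2 -/- from 321, 426 and 497 to 208, 253 and 247. The changes were -2.78, -2.95 and -0.81 (interaction adjusted p = 0.000902). In these last libraries the level was lower in normoxia and higher in hypoxia than in wild type.

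Ankrd63, an ankyrin repeat protein gene, fell most in wild type (-4.42), then in β-arrestin 1 -/- (-3.03) and in the libraries labelled β-arrestin 2 -/- (-1.66; interaction adjusted p = 0.0211). Its hypoxia libraries ran from 0.841 to 5.84 CPM and its normoxia libraries from 13 to 60. Ppp2r2c, a phosphatase regulatory subunit, changed by -1.01, -1.65 and -2.36 (interaction adjusted p = 0.0392) and Lamc3 by 1.09, 0.82 and 2.24 (0.0197).

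Gyg, glycogenin, which primes glycogen, showed opposite responses that cancel in the common effect (-0.01 ± 0.15, adjusted p = 0.975). It changed by 0.37 in wild type and 0.41 in β-arrestin 1 -/-, and by -0.83 in the libraries labelled β-arrestin 2 -/-, from 145, 153 and 159 to 82.2, 87.7 and 86.3 CPM (interaction adjusted p = 0.000902). Loxl1 (0.17, 0.10 and -1.43), S100a14 (-0.70, 0.57 and -1.70) and Btbd3 (-0.46, -0.14 and 0.82) also changed by genotype (interaction adjusted p of 0.00591 to 0.00626). Spon2 changed by -1.06, -0.53 and -4.77 (interaction adjusted p = 0.00265). Its common fall of -1.90 ± 0.54 (adjusted p = 0.0271) was lost without replicate 1 or 2 of the hypoxia libraries labelled β-arrestin 2 -/-. The number of interaction calls depended on single libraries. It was 119 without B2N1, 138 without B2H0, 150.0 without B2H2, 205 without B2H1, 218 without B2N0, 277 without B1N2, 285 without WTN1 and 286 without B1N1. It was 1131 without WTH0, 1293 without B1H2 and 1332 without B1H0, and DESeq2 called 1848.

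The authors' deposited table tests each genotype alone. Of the genes called higher here, 758 (62.6%) were called higher there in at least 1 genotype and 133 in all 3. Of those called lower, 489 (46.3%) and 56 were.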

How the data were processed

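Whole lung poly(A) RNA was sequenced in 18 libraries, 3 in each of 6 groups, with a kit that does not keep strand, so overlapping and antisense genes cannot be told apart. FastQC, TopHat, Cuffdiff and mm10 are named in the submitters' processing notes, and no source used here gives their versions. The deposited estimated counts are raw fragments per gene and library, per the file headers, of which 93.3% were whole numbers. The deposited FPKM values are the authors' length- and depth-scaled fragments, and the deposited q-values come from the authors' test within each genotype. The sign of the deposited test score gave the direction of the authors' calls, at a q-value below 0.05.

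Of 23356 features 5 marked as too deep to count were left out, among them Sftpc and Scgb1a1, and 20 marked as failed were kept. Estimated counts were rounded, filtered with filterByExpr over the 6 groups and scaled by TMM (edgeR 4.0.16, R 4.3.3). Dispersions and the quasi-likelihood fit used robust=TRUE, the design was genotype plus exposure, and a gene was called at a Benjamini-Hochberg adjusted p below 0.05 over all 15388 genes. SE is the size of the log2 change over the square root of F. Changes per genotype and the interaction come from the 6 group means. The procedure was tested on simulated data. DESeq2 1.42.0, limma 3.58.1 on log2(FPKM + 1) and the other alternatives are given in the closing section.

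Genes were named by rule: the 12 largest changes each way and the 10 smallest p among called, named genes whose average log2 CPM reached 1, with no overlap of the 9 and 9 libraries, up to 4 called members of each of 51 lists with their largest changes, and the 6 smallest interaction p. The members and lists were chosen with earlier results of these data known. Prox1, Mxi1, Slc2a1, Angptl4, Car9, Car12, Rgs5, Kcna5, Mvk, Pmvk, Nsdhl, Srebf1, Insig1, Fasn, Scd1, Per2 and Per3 were named after their values were seen. Promoters are the 250 bases before RefSeq starts (GRCm38.p6), and the transcribed bases of the windows were left out. Replicate numbers were not taken to pair libraries. Deviations from the group mean had correlations of -0.212 to 0.131 between same-numbered normoxia and hypoxia libraries of a genotype. Between differently numbered ones they were -0.273 to 0.37. With 3 libraries per group these values cannot settle whether libraries were paired. Some items that the naming rule picked are not reported here.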

Additional observations from a re-analysis of the deposited data

Results flagged for a closer look

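Among 292 sets of 9 libraries tested for 146 genes, 32 had 1 library whose gap to its nearest neighbour on the log2 CPM scale took more of the range than Dixon's critical value for 9 allows. Chance gives about 1 in 20 such sets. β-Arrestin 1 -/- hypoxia replicate 2 was that library 11 times. It was highest in hypoxia for Arrb2 (0.604 of the range), Ager (0.724), Hilpda (0.54), Ldhb (0.613), Mvd (0.516) and Fdps (0.504). It was lowest for Prox1 (0.53), Nos3 (0.517), Notch3 (0.819), Rgs5 (0.773) and Lss (0.532). Without this library the log2 changes were -1.35 for Hilpda, -0.53 for Ldhb, 0.90 for Mvd, 0.82 for Fdps, 1.72 for Prox1, 0.73 for Nos3, 0.74 for Notch3, 1.43 for Rgs5 and 0.76 for Lss, and each stayed called.

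Replicate 0 of the normoxia libraries labelled β-arrestin 2 -/- was highest for Lmod1 (0.618), Actg2 (0.502) and Kcna5 (0.518) and lowest for Lss (0.528) and Insig1 (0.688). Wild type normoxia replicate 1 was lowest for Car12 (0.711), Nr4a1 (0.496), Abcg1 (0.643), Myh6 (0.614) and Spon2 (0.548) and highest for Per3 (0.533). Wild type hypoxia replicate 2 was lowest for Ednrb (0.643), Cd36 (0.543) and Acot2 (0.67). Single cases were Olfm2 (0.527, lowest in hypoxia replicate 0 labelled β-arrestin 2 -/-), Tcf7 (0.59, highest in the same library), Serpina3g (0.513, highest in β-arrestin 1 -/- normoxia replicate 1), Kcnn3 (0.495, highest in wild type normoxia replicate 2) and Ngp (0.518, lowest in wild type hypoxia replicate 1). In normoxia labelled β-arrestin 2 -/-, Prox1 was lowest in replicate 2 (0.51) and Hk1 in replicate 1 (0.508).

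The hypoxia effect differed between the 3 genotypes by edgeR's interaction test for 14 genes named in the text. Adjusted p was 0.000902 for Lyve1 and Gyg, 0.00265 for Spon2, 0.00591 for S100a14 and Loxl1 and 0.00626 for Btbd3. It was 0.0156 for Ccl22, 0.0197 for Lamc3, 0.02 for Mxi1, 0.0211 for Ankrd63, 0.0225 for Mmrn1, 0.0231 for Edn1, 0.0259 for Reln and 0.0392 for Ppp2r2c.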

How the results depend on the processing

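Without the libraries labelled β-arrestin 2 -/- 697 genes were called higher and 551 lower, and without wild type 780.0 and 601. Without β-arrestin 1 -/- they were 935 and 833. Each of these 3 settings holds 12 libraries, and the cause of their differences was not tested. Leaving out 1 library gave 969 to 1770 genes higher, 822 to 1726 lower and 119 to 1332 interaction calls. DESeq2 called 1848 genes for the interaction against 479, and the cause was not tested. With the replicate number as a block, 1118 genes were called higher, 1036 lower and 424 for the interaction. Of the 136 genes named here with a call, the block ended that of Car12, Ednrb, Per2 and Per3. Of these 136, 127 kept their call without each 1 library, and 92 in each of the other alternatives. None changed direction. Gyg, not called for the common effect, was at 0.38 without the libraries labelled β-arrestin 2 -/- (adjusted p = 0.00959). DESeq2 (1573 higher, 1371 lower), its size factors (1212, 1048), no filter on low counts (1119, 962), limma on log2(FPKM + 1) (1081, 992), no genotype block (1087, 936) and leaving out the 2 libraries of lowest total (1674, 1539) stayed within 1.5 times. Depth limits genes below about 1 CPM, such as Car12 and Ngp, whose counts per library are small.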
